A study of Equus caballus with 18 samples.

Results

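Collagen genes were followed in the synovial fluid of horses, the lubricant of a joint, before and after a corticosteroid was injected into the joint. The genes were chosen by name: a probe set counted when it carried exactly 1 gene symbol made of COL, a number, A and a number, and each gene was represented by its brightest probe set. This gave 42 collagen genes of the 16661 genes with a symbol of their own on the array, with 1 probe set each. They comprised 8 fibrillar, 7 cartilage and 8 basement membrane collagens, and 19 others. The probe set of COL7A1 also carried the symbol of a microRNA and was left out by this rule. The 6 horses, exercised Thoroughbreds from a herd aged 4 to 8 years, were given 8 mg of the synthetic glucocorticoid isoflupredone acetate in the right antebrachiocarpal joint of the carpus. Fluid was taken at Baseline, just before the injection, then after 24 h and on day 7, and its total RNA was measured on an Affymetrix array of 30559 probe sets. Joints given saline were not analysed here, and the horses were back in regular exercise from day 3, so each difference below is one with time after the injection as a whole.

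Collagens are proteins of the extracellular matrix built from chains that wind into a triple helix. Fibrillar collagens give tendon, bone, skin and the joint lining their tensile strength, cartilage has a set of its own around type II collagen, and type IV collagen forms the sheet on which blood vessels and epithelia rest. In a joint they are made mainly by the fibroblasts of the synovial lining, by chondrocytes and by vessel walls, while joint fluid itself holds mostly blood-derived cells. The deposited values are log2 expression values, so a difference of 1 is a doubling, and a level is given below either as that value or as its difference from the median of all probe sets on the same array.

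For horses 1 and 2 the day 7 columns held equal values at 99.3% of probe sets, whereas the next closest pair of arrays shared 2.05%. These columns were averaged and counted as 1 array, which leaves 6 arrays at Baseline, 6 at 24 h and 5 on day 7. Array medians ran from 3.91 to 4.01 at Baseline, from 3.78 to 4.04 at 24 h and from 3.64 to 3.99 on day 7. The SD over all probe sets of an array was 1.22 to 1.50 at Baseline, 1.40 to 1.72 at 24 h and 1.53 to 1.82 on day 7. Of 13 measured markers of monocytes and macrophages, 7 were above the array median on every array, and of 10 T cell markers 6 were. Among 12 markers of synovial fibroblasts, 3 (DCN, GAS6 and CLIC5) were above it on every array and 3 (PDPN, CDH11 and FGF7) on none, and of 12 chondrocyte markers 2 (COMP and CHAD) were above it on every array.

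Most collagen signals lay a little above the middle of the array. Averaged over the 17 arrays, 29 of the 42 genes were above the array median. On every single array 16 were above it, and 3 were below it throughout: COL6A6, a long chain of type VI collagen, and COL12A1 and COL14A1, which bind to the surface of collagen fibrils. The percentile of the mean among all probe sets ran from 23.2 for COL6A6 to 89.5 for COL9A3. The chains of type IX collagen, which coats type II fibrils in cartilage, gave COL9A3 a mean of 1.91 and COL9A2 a mean of 1.68 above the array median. COL26A1 averaged 1.54, COL27A1 1.50, COL6A2 1.37 and COL1A1 1.33 above it. COL10A1, the collagen of hypertrophic chondrocytes, averaged -0.89 relative to the array median. The median collagen was 0.31 to 0.56 above the array median at Baseline, 0.14 to 0.70 above it at 24 h and between -0.02 and 0.42 relative to it on day 7. By the number of genes above the array median the ranges were 29 to 32 of 42 at Baseline, 24 to 33 at 24 h and 20 to 31 on day 7, so the times overlapped.

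**Figure D1:**
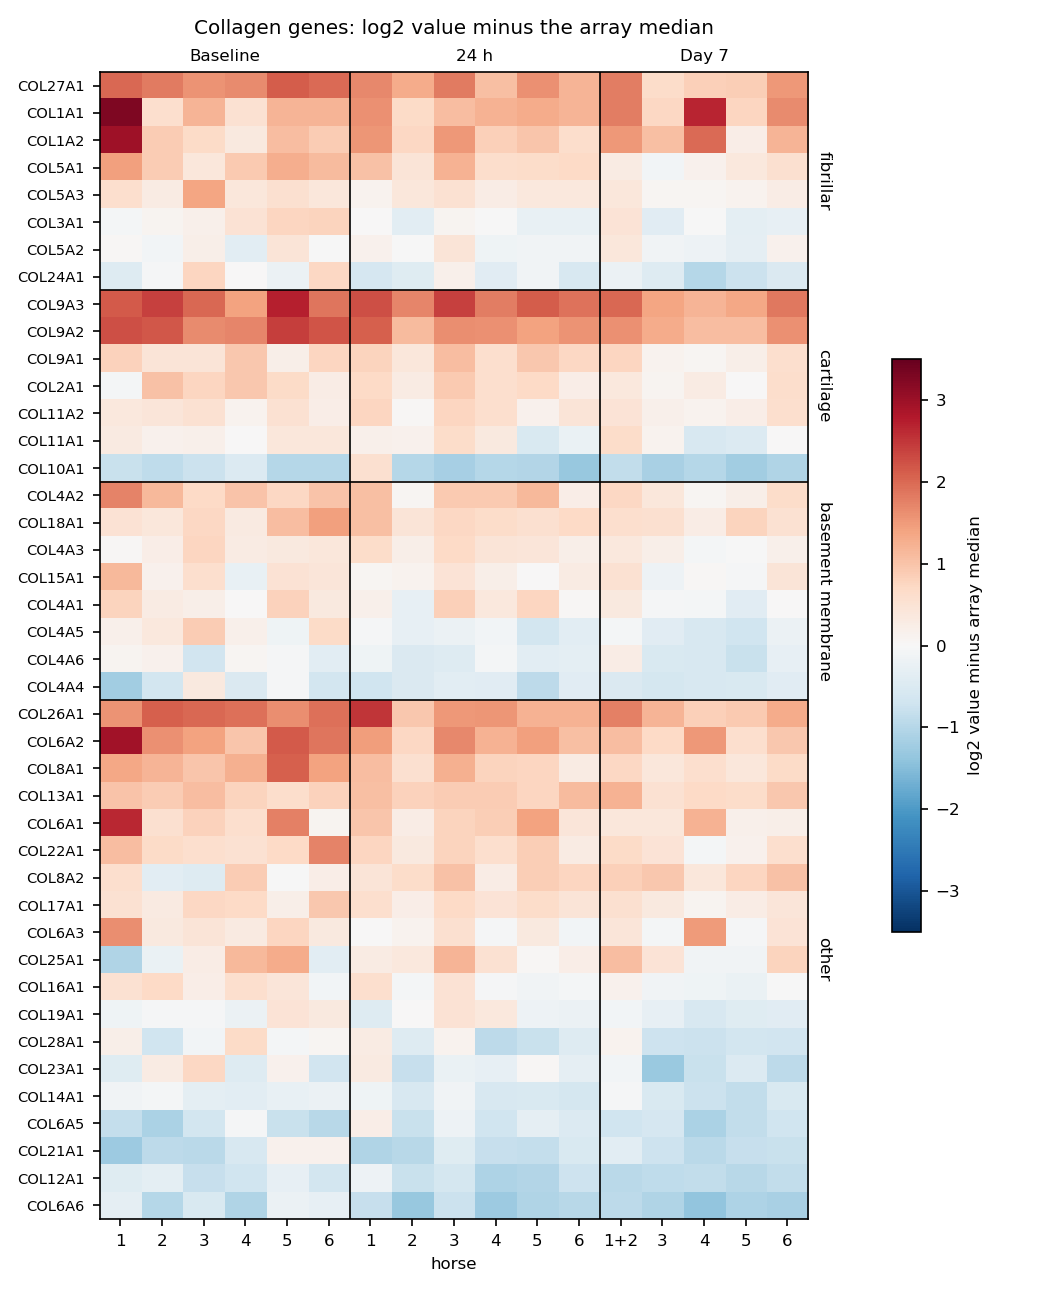
Each cell is the log2 value of a collagen gene minus the median of all probe sets on that array, with the 42 genes in rows by class and the 17 arrays in columns by time and horse. COL9A3 and COL9A2 stay red on every array, and COL6A6 and COL12A1 stay blue. The type I chains, COL6A1, COL6A2 and COL6A3 stand out on the Baseline array of horse 1 and the day 7 array of horse 4.

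At 24 h, no collagen gene passed the test against Baseline. The test was limma on the differences within horses with Benjamini-Hochberg adjustment over all probe sets, and it called 0 of 42 collagens at an adjusted p of 0.05. Of all probe sets it called 1.01%, with 0.543% higher and 0.471% lower. Among genes with 1 symbol, 0.126% were called lower. At an unadjusted p under 0.05 there were 5 collagens of 42, against 19.9% of all probe sets. The fitted change was below 0 for 35 of the 42 genes (83.3%), beside 55.7% of all probe sets. Its median was -0.24 beside -0.06 over all probe sets, both on the log2 scale. The median was -0.29 for fibrillar, -0.07 for cartilage, -0.19 for basement membrane and -0.25 for other collagens. Within single horses the median difference over the 42 genes was 0.01, -0.49, 0.22, -0.19, -0.48 and -0.43 in horses 1 to 6, so the horses did not all move one way.

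COL4A5, a type IV chain of specialised basement membranes such as that of the kidney filter, had the smallest adjusted p at 24 h. Its log2 values ran from 3.28 to 3.97 with a median of 3.65 at 24 h, against 3.84 to 4.90 with a median of 4.22 at Baseline. It was lower in 6 of 6 horses, by a fitted -0.67 ± 0.21 (SE, limma adjusted p = 0.108). Without the Baseline array of horse 1 it was the 1 collagen called, beside 4.11% of all probe sets (2.04% lower). The other collagens lower in every horse were COL6A6, at -0.52 ± 0.18, and COL5A3, a minor fibrillar chain, at -0.31 ± 0.21 (adjusted p = 0.151 and 0.427). The largest fitted rise was that of COL8A2, a network-forming collagen of the cornea's inner membrane, at 0.48 ± 0.26 (adjusted p = 0.339). COL10A1 had 4.58 on the 24 h array of horse 1 and at most 2.89 on the other 24 h arrays, against 2.98 to 3.44 at Baseline. No 24 h group lay wholly below its Baseline group among the 42 genes, where 0.877% of all probe sets did.

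On day 7, 9 of the 42 collagens were lower than at Baseline by the same test, and none was higher. The 9 were 21.4% of the collagens, while 15.4% of all probe sets were called lower and 11.9% higher (27.3% in all). Among genes with 1 symbol alone, 8.43% were called lower and 18% higher. The fitted change was below 0 for 39 of 42 genes (92.9%), beside 62.6% of all probe sets. Its median was -0.48, beside -0.24 over all probe sets and -0.04 over genes with 1 symbol. After each array was centred on its own median, the collagen median was -0.33 and that of all probe sets -0.09. After quantile normalization these were -0.41 and -0.06. Centring kept 7 of the 9 calls, without COL4A2 and COL6A2, and quantile normalization kept 6, without COL4A2, COL6A6 and COL24A1. With each array's SD added as a covariate, a setting in which no probe set was called, the collagen median turned to 0.21, beside 0.00 for all probe sets. At an unadjusted p under 0.05 there were 21 collagens of 42, against 43.6% of all probe sets. In RNA from a mixed fluid, fewer cells of a type and less RNA per cell cannot be told apart.

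**Figure D2:**
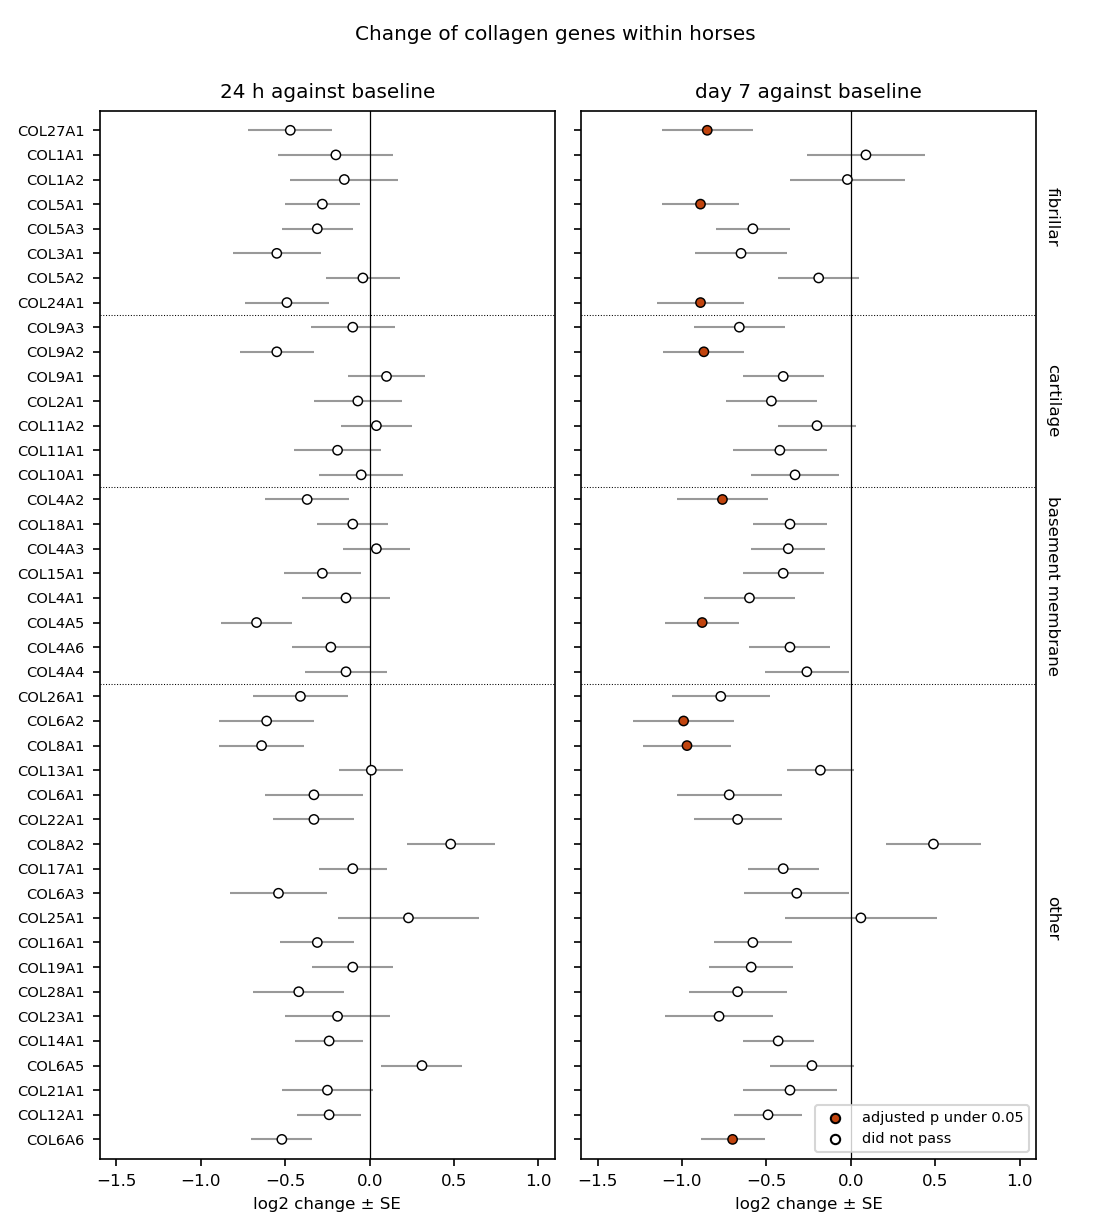
Points give the fitted log2 change within horses and bars its SE, at 24 h against Baseline on the left and on day 7 against Baseline on the right, with genes by class and in order of mean level. At 24 h no point passed the test, and on day 7 the 9 filled points all lie between -0.70 and -0.99.

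Among fibrillar collagens 3 of 8 fell on day 7 (37.5%), beside 15.4% of all probe sets and 8.43% of genes with 1 symbol called lower. The class median was -0.62. COL5A1 encodes a chain of type V collagen, which starts type I fibrils and limits their width. Its log2 values on day 7 were 4.28 for the shared array of horses 1 and 2, then 3.70, 3.78, 4.06 and 4.49 in horses 3 to 6, against 4.41 to 5.37 with a median of 4.96 at Baseline. All but horse 6 lay below the lowest Baseline array. The fitted change was -0.89 ± 0.23, or 1.85-fold lower, and the sign was the same in all 5 comparisons within horses (limma adjusted p = 0.0185).

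COL24A1 and COL27A1 are minor fibrillar collagens known from bone and from cartilage. COL27A1 was 5.77, 4.45, 4.47, 4.54 and 5.43 on day 7, in the same order of arrays, against 5.57 to 6.11 with a median of 5.87 at Baseline. The shared array lay within the Baseline range, and the arrays of horses 3, 4 and 5 more than a log2 unit under its lowest value. The fitted change was -0.85 ± 0.27 (adjusted p = 0.0327). COL24A1 was 3.79, 3.34, 2.65, 2.94 and 3.42 on day 7, against 3.47 to 4.75 with a median of 3.93 at Baseline. It was lower in 4 of 5 comparisons within horses, by a fitted -0.89 ± 0.26 (adjusted p = 0.0274).

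The remaining fibrillar collagens did not pass. COL3A1, the partner of type I collagen in the joint lining and vessel walls, was 4.47 on the shared day 7 array and 3.33 to 3.62 on the other day 7 arrays, against 3.86 to 4.76 at Baseline. Its change was -0.65 ± 0.27 with an adjusted p of 0.0871. COL5A3 changed by -0.58 ± 0.22 (adjusted p = 0.0614). The type I chains, the main collagen of bone, tendon and synovium, had the fitted changes nearest to 0 in the class, with COL1A1 at 0.09 ± 0.35 and COL1A2 at -0.02 ± 0.34 (adjusted p = 0.86 and 0.969).

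Of 7 cartilage collagens 1 fell on day 7 (14.3%), near the 15.4% of all probe sets called lower (8.43% of genes with 1 symbol). The class median was -0.42. COL9A2 was 5.58, 5.11, 4.72, 4.76 and 5.51 on day 7, against 5.63 to 6.39 with a median of 6.16 at Baseline. Every day 7 array was thus below every Baseline array, which held for 3 of the 42 collagens (7.14%) and for 8.11% of all probe sets. The other genes apart in this way were COL8A1 and COL12A1, whose change of -0.49 ± 0.20 had an adjusted p of 0.0858. The change of COL9A2 was -0.87 ± 0.24, or 1.83-fold lower, with the same sign in all 5 comparisons within horses (limma adjusted p = 0.0205).

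Its partner chains in the type IX trimer did not pass. COL9A3 was 5.99, 5.18, 4.83, 5.03 and 5.76 on day 7, against 5.32 to 6.69 at Baseline, a change of -0.66 ± 0.27 (adjusted p = 0.0777). COL9A1 changed by -0.40 ± 0.24 (adjusted p = 0.214). COL2A1, the main fibril of cartilage, was 4.37, 3.90, 3.94, 3.70 and 4.53 on day 7, against 3.86 to 4.98 at Baseline. Those ranges overlapped widely, and its change of -0.47 ± 0.27 did not pass (adjusted p = 0.193). COL10A1 changed by -0.33 ± 0.26 (adjusted p = 0.335).

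Of 8 basement membrane collagens 2 fell on day 7 (25%), beside 15.4% of all probe sets and 8.43% of genes with 1 symbol called lower. The class median was -0.39. COL4A5 was 3.92, 3.41, 3.07, 2.98 and 3.72 on day 7, against 3.84 to 4.90 at Baseline. All day 7 arrays but the shared one lay below the lowest Baseline array, and the change of -0.88 ± 0.22 had the smallest adjusted p among collagens (0.0153). COL4A2, which pairs with COL4A1 in the basement membrane of most tissues, was 4.71, 4.21, 3.72, 3.88 and 4.55 on day 7, against 4.70 to 5.67 with a median of 4.95 at Baseline. Its change of -0.76 ± 0.27 lay close to the threshold (adjusted p = 0.0483) and passed in 12 of 36 alternative fits. COL4A3 and COL4A4, which join COL4A5 in the kidney filter, changed by -0.37 ± 0.22 and -0.26 ± 0.25 (adjusted p = 0.193 and 0.43). COL18A1, whose tail is cut off as endostatin, changed by -0.36 ± 0.22 (adjusted p = 0.223).

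Of the 19 other collagens 3 fell on day 7 (15.8%), near the 15.4% of all probe sets called lower (8.43% of genes with 1 symbol). The class median was -0.58. COL8A1 forms hexagonal networks with COL8A2 and is found around vessels. It was 4.72, 4.20, 4.24, 4.08 and 4.59 on day 7, against 4.99 to 6.07 with a median of 5.22 at Baseline, so the groups did not overlap. Its change was -0.97 ± 0.26, or 1.96-fold lower (adjusted p = 0.0212). COL8A2 was 4.83, 4.74, 4.05, 4.43 and 4.95 on day 7, against 3.55 to 4.80 with a median of 4.08 at Baseline. It had the largest fitted rise of the 42 genes, 0.49 ± 0.28, which did not pass (adjusted p = 0.185). COL8A2 passed in 1 of 36 alternative fits. Without the Baseline array of horse 4 it was called higher (0.75, adjusted p = 0.0431). In that fit 22.8% of all probe sets were called (12.5% lower). COL25A1, a transmembrane collagen of nerve cells, had 0.06 ± 0.45 (adjusted p = 0.928).

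COL6A6, a chain that can take the place of COL6A3 in type VI collagen, was 3.07, 2.76, 2.27, 2.60 and 2.79 on day 7, against 2.87 to 3.77 with a median of 3.55 at Baseline. It was below the array median throughout, and its change was -0.70 ± 0.19 (adjusted p = 0.0225). COL26A1 changed by -0.77 ± 0.29 (adjusted p = 0.0627). COL6A2 gave the largest fall of the 42 genes and is described with the other chains of type VI below.

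**Figure D3:**
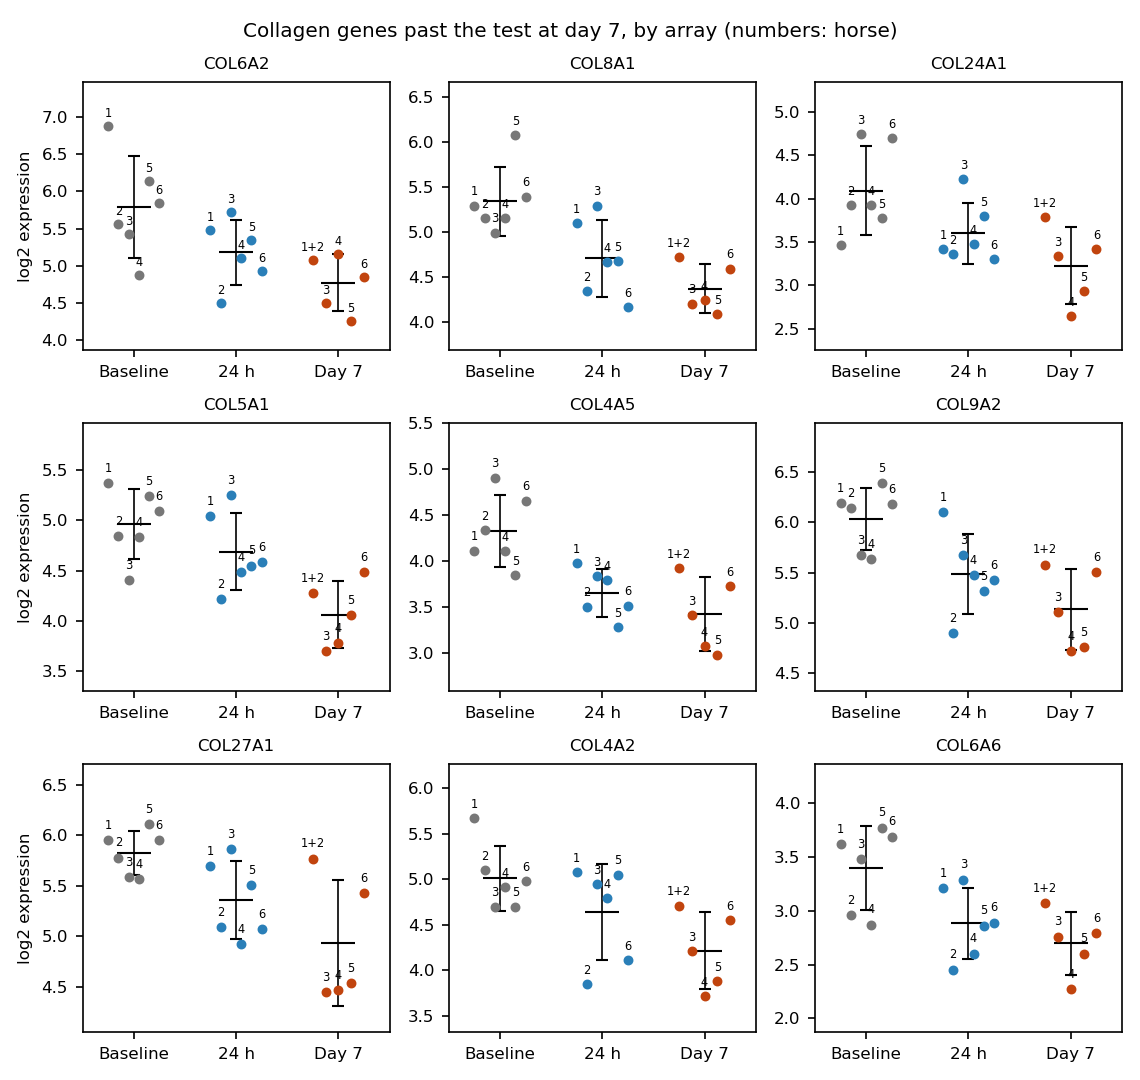
Log2 expression of the 9 collagens that fell on day 7 is shown for each array, labelled by horse, with the mean (long line) and SD (bars) at each time. In most panels the day 7 array shared by horses 1 and 2 and that of horse 6 sit highest of the day 7 arrays, and COL8A1 and COL9A2 have no day 7 array within the Baseline range.

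The type I chains and the type VI chains COL6A1, COL6A2 and COL6A3 shared 2 high arrays. The type VI chains COL6A5 and COL6A6 did not share them. On the day 7 array of horse 4 they were the lowest of their time, at 2.54 and 2.27. Type VI collagen forms beaded filaments around cells, from COL6A1, COL6A2 and COL6A3 or a longer chain. COL6A2 was 5.08, 4.50, 5.16, 4.26 and 4.85 on day 7, against 4.87 to 6.88 with a median of 5.70 at Baseline. Its change was -0.99 ± 0.30, or 1.98-fold lower in 4 of 5 comparisons within horses (adjusted p = 0.0291). COL6A1 was 4.40, 4.20, 4.85, 3.86 and 4.13 on day 7, against 4.07 to 6.58 with a median of 4.66 at Baseline, a change of -0.72 ± 0.31 (adjusted p = 0.0918). COL6A3 was 4.41, 3.72, 5.12, 3.65 and 4.40 on day 7, against 4.23 to 5.56 with a median of 4.39 at Baseline, a change of -0.32 ± 0.31 (adjusted p = 0.426). Its change was -0.59 without the day 7 array of horse 4 and -0.17 without the Baseline array of horse 1. For all 3 the highest Baseline value came from horse 1 and the highest day 7 value from horse 4.

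The type I chains had the same highest arrays. COL1A1 was 5.77, 4.52, 6.31, 4.43 and 5.58 on day 7, against 4.45 to 7.21 with a median of 5.18 at Baseline. COL1A2 was 5.51, 4.85, 5.61, 3.91 and 5.12 on day 7, against 4.26 to 6.91 with a median of 4.87 at Baseline. Without the day 7 array of horse 4, the fitted day 7 change was -0.23 for COL1A1 and -0.27 for COL1A2. Without the Baseline array of horse 1, it was 0.30 for COL1A1 and 0.17 for COL1A2. COL6A2 still passed without the day 7 array of horse 4 (adjusted p = 0.032) and without the Baseline array of horse 1 (adjusted p = 0.0422).

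Some markers of other cells were also high on these arrays, and others were not. The fibroblast markers, summed on the linear scale and given as log2, came to 9.99 on the Baseline array of horse 1. DCN (8.53) and CLIC5 (8.30) were the brightest of them there and weigh most in that sum. The range of the sum was 7.16 to 8.16 on day 7 with horse 4 at the top, 7.49 to 8.18 at 24 h and 7.50 to 9.99 at Baseline. Of the 12 markers, 4 were the highest of their time and 3 (PDPN, CLIC5 and FGF7) the lowest on the day 7 array of horse 4, against 7 highest and 0 lowest on the Baseline array of horse 1. The endothelial markers summed to 6.80 on the day 7 array of horse 4, within the day 7 range of 6.68 to 7.15. They summed to 9.21 on the Baseline array of horse 1, where ERG alone was 8.87, and without ERG to 6.98, within the Baseline range of 6.73 to 7.13. The chondrocyte markers summed to 7.00 on the day 7 array of horse 4, the lowest of its time, and to 8.40 on the Baseline array of horse 1, the highest of its time. Decorin (DCN), a proteoglycan that coats collagen fibrils, was 6.75 on the day 7 array of horse 4 and 4.14 to 5.06 on the other day 7 arrays, against 8.53 on the Baseline array of horse 1 and 4.91 to 5.71 on the other Baseline arrays. Lumican (LUM) and biglycan (BGN), of the same family, were 5.41 and 6.77 on the day 7 array of horse 4, against 6.05 and 9.31 on the Baseline array of horse 1. These proteoglycans were picked after their values were seen, and DCN and LUM are also among the fibroblast markers. Of all 15 fibril partners on the list, 6 were the highest of their time on the day 7 array of horse 4 and 11 on the Baseline array of horse 1, while OGN, ASPN, FMOD and PRELP were not the highest on the day 7 array of horse 4. Across the 12 fibroblast markers 0 rose and 1 fell on day 7 (8.33%), near the 8.43% of genes with 1 symbol called lower. Their median change was -0.34, beside -0.24 over all probe sets and -0.04 over genes with 1 symbol. The part of these markers in the collagen differences was not tested.

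**Figure D4:**
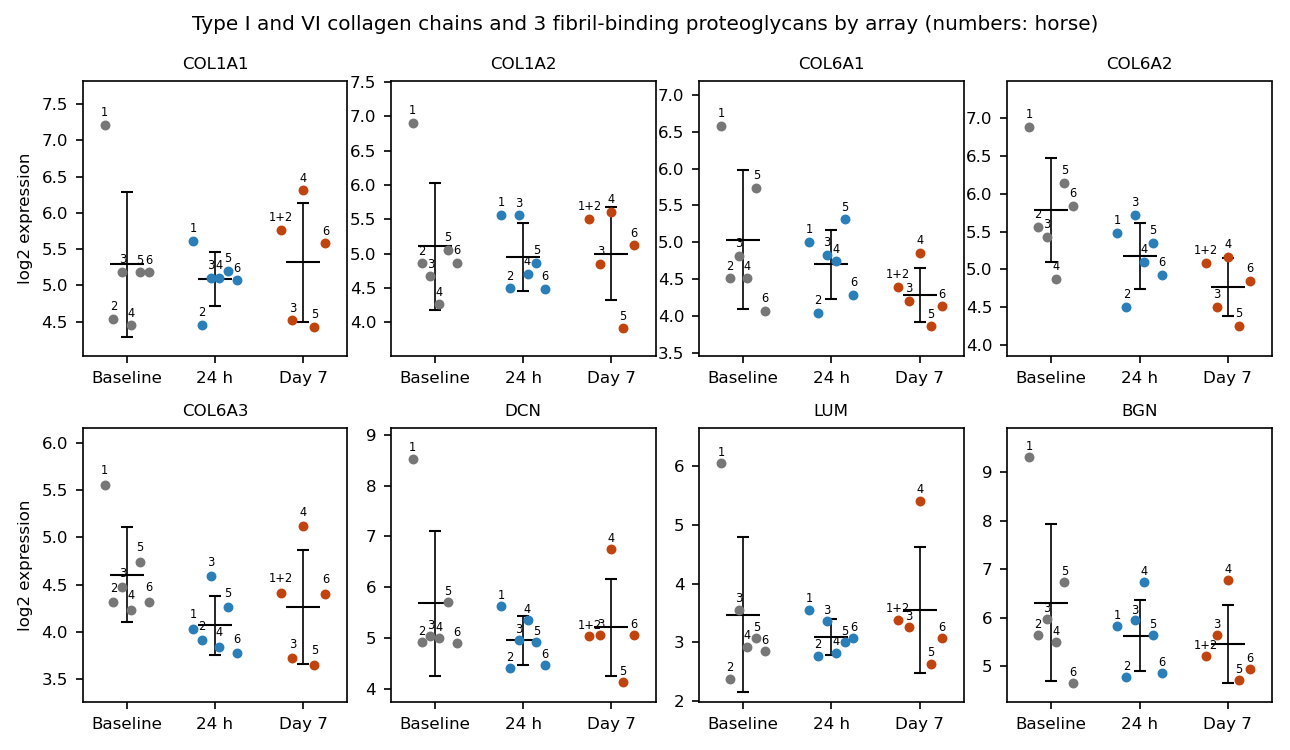
Log2 expression of 5 collagen chains of types I and VI and of the fibril-binding proteoglycans DCN, LUM and BGN is shown for each array, labelled by horse, with the mean and SD at each time. All 8 genes are highest at Baseline in horse 1 and highest on day 7 in horse 4.

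The fall on day 7 was uneven between horses. The median difference over the 42 genes was 0.02 for the shared array against the mean of its horses, and -0.60, -0.70, -0.94 and -0.30 in horses 3 to 6. Lower than at Baseline were 41 of 42 genes in horse 5, 38 in horse 3, 36 in horse 4 and 28 in horse 6, against 20 on the shared array. The shared array was the highest of its time for 32 genes, and the arrays of horses 4 and 5 were the lowest for 21 and 17. The day 7 arrays of horses 4 and 5 also had the widest spread of values of the 17 (SD 1.82 and 1.81) and the lowest medians (3.64 and 3.68). Without the day 7 array of horse 3 the test called 0 collagens, and without that of horse 5 it called COL4A5 alone. Without that of horse 4 it called 2 (COL4A5 and COL6A2). Of all probe sets, 8.43%, 8.32% and 13.1% were called in these fits (4.33%, 4.35% and 7.14% lower). Without the Baseline arrays of horses 5, 6 or 2 it called 3, 4 or 5 collagens. Of all probe sets it then called 17%, 15.8% and 14.6% (9.75%, 8.65% and 7.76% lower). Without the Baseline array of horse 1 it called 15 collagens and 35.8% of all probe sets (20.8% lower). Without the shared day 7 array it called 18, including all 9 above, and 31.8% of all probe sets (17.2% lower).

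The change on day 7 varied with brightness over the array as a whole. With all probe sets split into 4 equal groups from dimmest to brightest, the median day 7 change was -0.61, -0.30, -0.04 and 0.51. The collagens in these groups numbered 2, 12, 21 and 7. Their median changes were -0.51, -0.46, -0.42 and -0.77, and 1, 2, 3 and 3 of them fell. The share of all probe sets called lower was 34.5%, 12.3%, 8.02% and 6.72% in the same order. The collagens of the brightest group had a median below 0 where that of all probe sets was above 0. Of these, COL6A2, COL9A2 and COL27A1 were called lower. The levels compared there are not alike. Means in that group ran from 4.87 to 13.41, but those of its collagens only from 5.02 (COL1A2) to 5.81 (COL9A3).

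**Figure D5:**
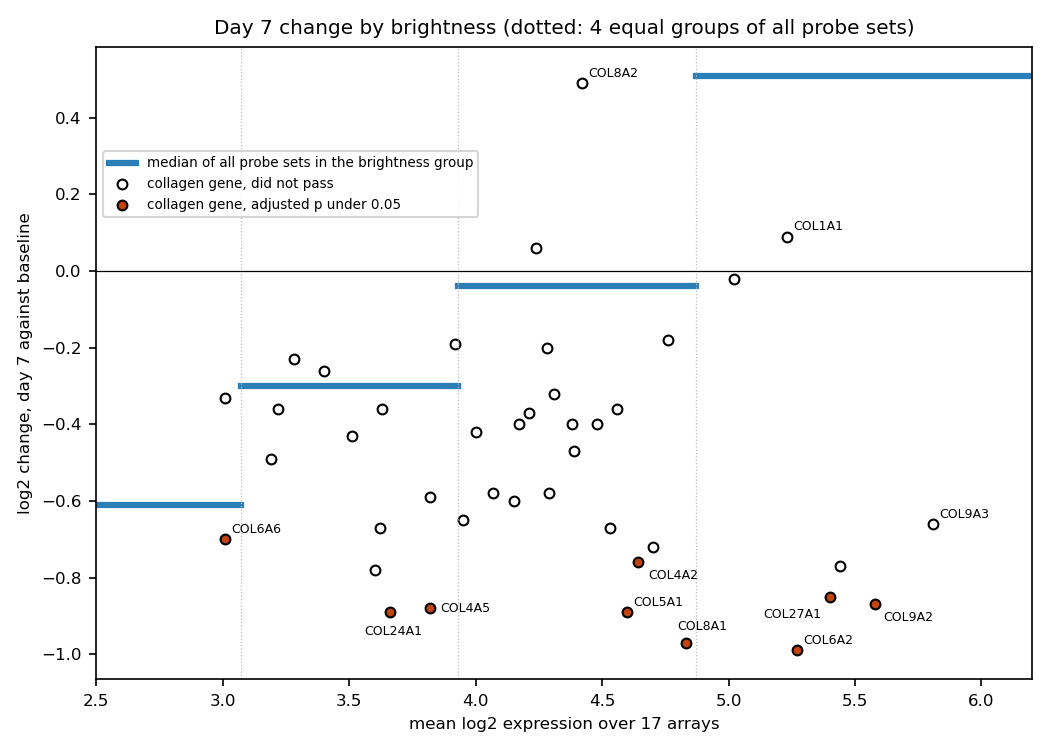
Each point is a collagen gene, with its mean log2 expression over 17 arrays on the horizontal axis and its fitted log2 change on day 7 against Baseline on the vertical axis. Blue bars are the medians of all probe sets in each of 4 equal groups by brightness, which run from -0.61 to 0.51. The brightest group extends to a mean of 13.41, beyond the axis shown. Filled points are the 9 collagens that fell.

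Between day 7 and 24 h no collagen passed the test, nor did any other probe set (0%). At an unadjusted p under 0.05, limma gave 1 collagen of 42, against 13.2% of all probe sets. The fitted change was below 0 for 38 of 42 collagens (90.5%), beside 64.5% of all probe sets. Its median was -0.27, beside -0.15 over all probe sets. This comparison and the one above share the day 7 arrays. With arrays weighted by how closely they followed the fit, 6 collagens were called lower, beside 6.12% of all probe sets.

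Genes that make, process, bind and break down collagen were read from lists chosen by role. The list of 21 genes for making collagen in the cell holds mostly genes that modify and fold new chains. On day 7, 8 of the 21 rose and 0 fell, beside 18% of genes higher. P4HA1, a subunit of the enzyme that hydroxylates proline in collagen, was 3.92, 5.57, 6.35, 5.83 and 4.99 on day 7, against 3.05 to 3.87 at Baseline. Its change was 1.83 ± 0.37 (limma adjusted p = 0.00848). P4HB, the other subunit and a general folding enzyme, rose by 2.16 ± 0.52, and PLOD1, which hydroxylates lysine, by 1.41 ± 0.31 (adjusted p = 0.0144 and 0.0105). CRTAP, a part of the prolyl 3-hydroxylase complex, rose by 2.02 ± 0.52 (adjusted p = 0.0181). SERPINH1, the chaperone dedicated to collagen, did not pass at 0.38 ± 0.48 (adjusted p = 0.557).

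Of 13 genes that trim and cross-link collagen outside the cell, 2 rose and 1 fell on day 7, near the 18% and 8.43% of all genes. LOXL1, a cross-linking oxidase, fell by 1.09 ± 0.27 on the log2 scale, with 4.34, 4.08, 4.27, 4.12 and 4.37 on day 7, against 4.35 to 5.94 at Baseline (adjusted p = 0.0152). PCOLCE2, an enhancer of the protease that trims procollagen, and BMP1, that protease, changed by 1.13 ± 0.25 and 1.32 ± 0.38 (adjusted p = 0.0105 and 0.0247). Of 15 partners of collagen fibrils, 1 rose and 2 fell, beside the same shares of all genes. TGFBI, a matrix protein that binds collagen, rose by 2.99 ± 0.55, while the small proteoglycans OGN and ASPN fell, with changes of -0.90 ± 0.25 and -0.61 ± 0.20 (adjusted p = 0.00632, 0.0231 and 0.0366).

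Of 10 collagen receptors, 2 rose and 1 fell on day 7, near the 18% and 8.43% of all genes. MRC1, the mannose receptor through which macrophages also take up collagen, was 5.98, 7.27, 9.13, 9.02 and 8.58 on day 7, against 3.71 to 5.52 at Baseline. It rose by 3.17 ± 0.61, or 9.02-fold (adjusted p = 0.00718). ITGB1, the beta chain of the collagen-binding integrins, rose by 1.49 ± 0.51, and DDR2, a receptor of fibroblasts for fibrillar collagen, fell, with a change of -1.20 ± 0.41 (adjusted p = 0.044 and 0.0461). DDR2 was 8.17 on the Baseline array of horse 1 and at most 5.21 on the other Baseline arrays, and its change passed in 12 of 36 alternative fits, that of ITGB1 in 15.

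Of 10 genes that break collagen down, 2 rose on day 7 and 2 at 24 h, beside 18% and 0.72% of genes higher. CTSB, a lysosomal protease, rose by 3.35 ± 0.38 on day 7 and by 2.54 ± 0.36 at 24 h (adjusted p = 0.00138 and 0.0121). PEPD, which frees proline from collagen fragments, rose by 1.66 ± 0.32 on day 7 (adjusted p = 0.00749). MMP1, an interstitial collagenase, had 4.20 to 10.58 at 24 h, against 3.42 to 5.15 at Baseline, and was higher in 6 of 6 horses by 3.94 ± 0.71 (adjusted p = 0.0307). On day 7 it was 3.79 to 5.45. Of 13 monocyte and macrophage markers, 8 rose on day 7, with a median change of 1.88. The part of these markers in the changes of the related genes was not tested. Of the 15 related genes named as changed on day 7, 8 kept their call after quantile normalization (P4HA1, PLOD1, PCOLCE2, LOXL1, MRC1, CTSB, PEPD and TGFBI), 11 after centring and 0 with each array's SD as a covariate. The calls at 24 h held in 32 of 36 alternative fits for CTSB and in 23 for MMP1.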

How the data were processed

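Total RNA from synovial fluid was measured on 18 arrays of 6 horses at 3 times. The table deposited by the authors holds log2 expression for each probe set. Tools listed in the submitters' processing notes are Affymetrix Expression Console, Transcriptome Analysis Console 3.0 and RMA, without role or order, and the build is not given in the sources used here. GEO's platform annotation gave 1 symbol for 16789 of 30559 probe sets and several for 343, and can be old. The matching day 7 columns of horses 1 and 2, which differed at 212 probe sets, were averaged and shared between both horses, leaving 17 arrays. Time was fitted with the horse as a block by lmFit and eBayes of limma 3.58.1 (R 4.3.3; a two-sided test with 9 residual degrees of freedom and 4.71 from the prior), and Benjamini-Hochberg adjustment at 0.05 ran over all probe sets. The titles name the same horse at each time; residuals from the time means correlated at a median of -0.02 over 18 same-horse pairs and 0.00 over 78 other pairs. Changes are those fitted within horses. The fit was tested on simulated data.

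The members and lists were chosen with earlier results of these data known. Collagens named with values were those called, the 3 brightest and the dimmest of each class, and those with the largest rise or fall of each class; COL2A1, COL5A3, COL6A1, COL6A3, COL12A1, COL14A1 and COL25A1 were named after their values were seen, as were DCN, LUM, BGN and SERPINH1. From each list of related genes, called members with the smallest p were named. The 36 alternative fits changed the block, the arrays used, normalization, filters, weights and the treatment of the shared array, or left out each horse and each array. Figures used matplotlib 3.10.9 in Python 3.11.15. The number of arrays limits the precision, and no sequences were used.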

Additional observations from a re-analysis of the deposited data

Results flagged for a closer look

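In 81 groups of 5 or 6 arrays over the 27 named collagens, 8 held an array whose gap to the next passed Dixon's 95% limit. Chance gives about 1 in 20 only for independent groups of genes picked without regard to their values. Some of these genes were picked by their values and all share the same arrays, so the count cannot be set against that rate. COL1A1 (7.21, next 5.19) and COL1A2 (6.91, next 5.06) had their gap at the Baseline array of horse 1. COL5A3 had it at the 24 h array of horse 3 (4.58, next 4.29) and at the Baseline array of the same horse (5.40, next 4.55). COL10A1 was 4.58 on the 24 h array of horse 1, next to 2.89. COL25A1 was 5.24 on the 24 h array of horse 3, next to 4.42. COL3A1 was 4.47 on the day 7 array of horses 1 and 2, next to 3.62. COL8A1 was 6.07 on the Baseline array of horse 5, next to 5.39.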

How the results depend on the processing

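On day 7 against Baseline, 9 collagens were called, all lower, beside 27.3% of all probe sets (15.4% lower). Shares below count both directions unless given as lower. The count was 13 with no replicate block, which kept all 9, and 15 with the horse as a random effect. The share of all probe sets called moved as well, to 30.2% and 31.4% in these fits (17.5% and 18.3% lower). The count was 4 with only the arrays of the times compared, beside 20.1% of all probe sets (9.86% lower). It was 24 with array weights (whose estimation stopped before full convergence), beside 44.6% (26.9% lower). It was 0 with each array's SD as a covariate, beside 0%, and 0 by an unadjusted p under 0.05 with a 2-fold change, beside 18.2%. It was 7 after quantile normalization, median centring or removal of the dimmest 25% of probe sets. The shares were then 9.35%, 21.1% and 22.2% (4.08%, 8.4% and 7.7% lower). It was 15, 6 or 18 with the shared day 7 array given to horse 1, given to horse 2 or left out. The shares of all probe sets were then 34%, 20.5% and 31.8% (19.5%, 11.2% and 17.2% lower). The count ran from 0 to 10 without single horses and from 0 to 15 without single arrays. The shares ran from 5.76% to 27.9% and from 8.32% to 35.8%. At 24 h the count ran from 0 to 1 without single arrays. Where it was 1, 4.11% of all probe sets were called (2.04% lower). Day 7 against 24 h gave 6 with array weights, beside 15.8% (6.12% lower). Calls passed most often for COL4A5 (32 of 36 fits) and least often for COL4A2 (12). With the SD as covariate, changes turned positive at 24 h and day 7 for COL2A1 (0.46, 0.44), COL9A3 (0.40, 0.21), COL10A1 (0.33, 0.33), COL18A1 (0.33, 0.39), COL26A1 (0.31, 0.47), COL14A1 (0.20, 0.33), COL24A1 (0.14, 0.21), COL3A1 (0.12, 0.51), COL4A4 (0.11, 0.17), COL27A1 (0.09, 0.10) and COL4A2 (0.08, 0.02), and at day 7 for COL4A3 (0.41), COL9A1 (0.26) and COL1A2 (0.14). Quantile normalization turned COL10A1 (0.20 at 24 h, 0.09 at day 7), COL4A4 (0.02 at day 7) and COL1A1 (-0.18 at day 7). At day 7, COL1A2 was 0.13 after centring, 0.04 with array weights, 0.02 with only the arrays of the times compared and 0.14 with the shared array given to horse 2. COL1A1 was -0.11 with that array given to horse 1. COL25A1 was -0.31 with array weights, -0.03 with that array given to horse 2 and -0.35 without it. Over fits that left out a horse or an array, changes spanned both signs at 24 h for COL10A1 (-0.35 to 0.05), COL18A1 (-0.27 to 0.04), COL1A1 (-0.46 to 0.08), COL1A2 (-0.36 to 0.08), COL2A1 (-0.27 to 0.12), COL4A3 (-0.12 to 0.12), COL4A4 (-0.32 to 0.02), COL9A1 (-0.02 to 0.23), COL9A3 (-0.22 to 0.08) and COL25A1 (-0.10 to 0.56), and at day 7 for COL1A1 (-0.32 to 0.41), COL1A2 (-0.33 to 0.26) and COL25A1 (-0.22 to 0.45). Of the related genes, CRTAP (-0.64) and ITGB1 (-1.15) turned with the SD as covariate. The causes were not tested. Over the changes of named collagens, 1717 of the alternative values kept direction and side of the threshold, 101 lost the call, 30 gained one and 92 turned direction.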
